A study of Homo sapiens with 6 samples.

Results

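Axon guidance genes code for the cues that steer growing axons and for the receptors that read them. The 75 genes described here were all protein-coding genes of the human annotation (GENCODE 44, genome build hg38) whose symbols belong to the semaphorin, ephrin, slit and netrin ligands or to the plexin, Eph, ROBO and UNC5 receptors, together with NRP1, NRP2, DCC and NEO1, out of 20033 protein-coding genes. They comprised 38 ligand genes and 37 receptor genes. Choosing by symbol also brought in UNC50, a membrane protein that is not a netrin receptor, UNC5CL, which is related to UNC5C, and the read-through gene EFNA4-EFNA3, and none of these 3 held a peak.

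Chromatin immunoprecipitation followed by sequencing (ChIP-seq) had been done for 82-kDa ChAT, the nuclear form of the acetylcholine-synthesising enzyme choline acetyltransferase, and for SATB1, a protein that anchors AT-rich DNA to the nuclear matrix. All cells were SH-SY5Y, a human neuroblastoma line, made to express 82-kDa ChAT stably and differentiated with retinoic acid for 3 days. They then received either vehicle (Ham's F-12 medium) or 100 nM of oligomeric Aβ1–42, the amyloid peptide of Alzheimer's disease, and were taken after 4 h. Each treatment used 3 plates, but there was 1 library for each protein and treatment. The antibody to ChAT was made in-house against the C-terminus of the protein, and the expressed 82-kDa ChAT was present in every group, so no group shows SATB1 in cells without it. According to the paper, a shorter ChAT form differs only in lacking the N-terminal extension. An antibody to the C-terminus would not separate these forms, and the peaks are named here as in the study. The 2 input libraries, 1 for each treatment, were used by the authors to remove peaks and were not analysed here. The question put to the data was whether the 4 peak lists touched the guidance genes more or less often than the length of these genes would give, and whether this differed by protein, treatment or gene family. With 1 library in each group no treatment could be tested against the spread between replicates, and all intervals below are 95% intervals that cover counting error only.

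Guidance cues act at short or long range and attract or repel the growth cone at the tip of an axon. Slits are secreted proteins that repel axons through ROBO receptors, netrins attract through DCC and repel through UNC5 receptors, semaphorins signal through plexins, with neuropilins as co-receptors for the secreted class, and ephrins on one cell bind Eph receptor kinases on the next. Many of these genes are very long in the human genome because of large introns, which matters for any count of peaks inside gene bodies.

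The gene bodies of the 75 guidance genes ran from 2.8 to 1743.3 kb, with a median of 69.1 kb, and together covered 15.17 Mb of the 1305 Mb of protein-coding gene bodies. The peaks inside them numbered 27 for 82-kDa ChAT after vehicle, 32 for 82-kDa ChAT after Aβ, 6 for SATB1 after vehicle and 15 for SATB1 after Aβ, 80 in all. A peak was counted where at least 1 nt of it lay in a gene body. Of the 80 peaks, 70 lay wholly in an intron of the reference transcript of the gene (the MANE Select transcript), 4 touched an exon and 6 lay in the gene body but outside that transcript.

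The sequences below, read from hg38 on the plus strand, are the highest-scoring guidance gene peaks of 82-kDa ChAT after Aβ and of SATB1 after vehicle. The score is 10 times −log10 of the peak caller's p-value, so a higher score is a stronger peak. Capitals mark the A/T-rich pattern for SATB1 that the study considered, 3 to 6 letters A or T, then C, then at least 3 letters A or T, searched on both strands.
ROBO1, 82-kDa ChAT Aβ, chr3:78976280-78976362, intron 3, score 137.12: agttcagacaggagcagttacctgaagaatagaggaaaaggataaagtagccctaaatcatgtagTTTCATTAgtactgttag
ROBO2, SATB1 vehicle, chr3:76193167-76193319, in the gene body outside the reference transcript, score 78.59: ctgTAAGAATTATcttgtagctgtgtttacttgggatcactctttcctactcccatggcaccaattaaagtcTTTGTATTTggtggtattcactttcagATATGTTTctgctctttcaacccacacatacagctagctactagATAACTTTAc
Both lie in ROBO genes. The SATB1 vehicle sequence held 4 matches of the pattern and the ROBO1 sequence 1.

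For 82-kDa ChAT the guidance genes held about as many peaks as their length gave, and in both SATB1 lists they held fewer, although only after Aβ did the interval lie below the expected number. The expected number was the rate of peaks per nt over all protein-coding gene bodies times the length of the guidance genes. After vehicle, the 27 peaks of 82-kDa ChAT (exact Poisson interval 17.8 to 39.3) stood against 31.7 expected, a ratio of 0.851 (interval 0.561 to 1.24). After Aβ, the 32 peaks of 82-kDa ChAT (interval 21.9 to 45.2) stood against 31.3, a ratio of 1.02 (interval 0.700 to 1.44). Both intervals of 82-kDa ChAT include 1, but among peaks that reached the median score of the list the vehicle ratio was 0.480 (interval 0.193 to 0.988). The 6 SATB1 peaks after vehicle (interval 2.20 to 13.1) stood against 12.1 expected, a ratio of 0.497 (interval 0.182 to 1.08), which also includes 1. The 15 SATB1 peaks after Aβ (interval 8.40 to 24.7) stood against 32.2 expected, and their ratio of 0.466 (interval 0.261 to 0.769) lay below 1.

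The guidance genes were poor in the Alu repeat, a short element with very many copies in the genome, that most SATB1 peaks after Aβ matched. After Aβ, 2243 of the 2770 SATB1 peaks in protein-coding genes (81.0%) matched the Alu repeat, against 6.93% after vehicle. The guidance gene bodies held 21.7 copies for every 100 kb, compared with 43.7 over all protein-coding gene bodies, and for genes of 200 kb or more the values were 19.8 and 29.7. The 11 Alu-matching SATB1 peaks in guidance genes compared with 26.1 expected from length (ratio 0.422, interval 0.211 to 0.755) and with 13.0 expected from their share of Alu copies (ratio 0.848, interval 0.423 to 1.52). The other 4 SATB1 peaks after Aβ compared with 6.12 expected from length (ratio 0.653, interval 0.178 to 1.67). With Alu-matching peaks expected from Alu copies and the others from length, a calculation added once the data were known, the number expected for SATB1 after Aβ was 19.1 and the ratio 0.786 (interval 0.440 to 1.30), which includes 1. The ratios for 82-kDa ChAT became 0.881 after vehicle and 1.09 after Aβ, and that for SATB1 after vehicle 0.515. The part of the Alu content in the low number was not tested.

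**Figure D1:**
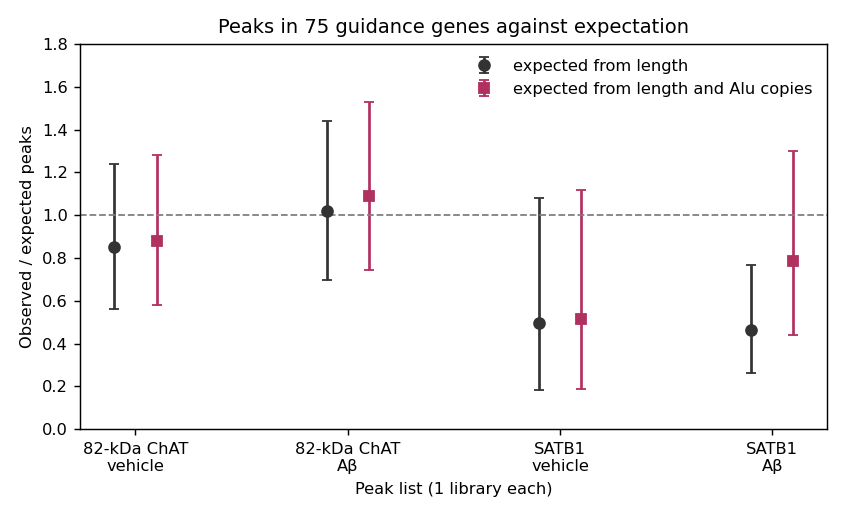
Observed divided by expected number of peaks in the 75 guidance genes (vertical axis, no unit) for the 4 peak lists (horizontal axis, 1 library each), with 95% Poisson intervals. Dark circles use gene length alone and red squares use Alu copies for Alu-matching peaks. SATB1 after Aβ sits at 0.466 with the first expectation, below the dashed line at 1, and at 0.786 with the second, where its interval crosses the line.

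As a share of each list's own peaks in protein-coding genes, guidance genes took 0.989% for 82-kDa ChAT after vehicle (27 of 2729, exact Clopper-Pearson interval 0.653 to 1.44) and 1.19% after Aβ (32 of 2693, interval 0.814 to 1.67). The difference, Aβ minus vehicle, came to 0.199 percentage points (−0.365 to 0.773). For SATB1 the shares were 0.578% after vehicle (6 of 1039, interval 0.212 to 1.25) and 0.542% after Aβ (15 of 2770, interval 0.303 to 0.892), and their difference came to −0.036 percentage points (−0.745 to 0.433). Both intervals include 0, so no difference between treatments was detectable at these counts. The 6 and 15 SATB1 peaks in guidance genes thus belong to lists with 1039 and 2770 peaks in protein-coding genes. Between the proteins, the share of SATB1 minus that of 82-kDa ChAT was −0.412 percentage points after vehicle (interval −0.957 to 0.332) and −0.647 after Aβ (interval −1.18 to −0.155). Only the interval after Aβ lies wholly below 0. Without Alu-matching peaks, which was also added once the data were known, the shares after Aβ were 0.759% for SATB1 (4 of 527) and 1.34% for 82-kDa ChAT (32 of 2384), and the interval of their difference, −1.30 to 0.656, includes 0.

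At least 1 peak was found in 28 of the 75 guidance genes, against 26.9% of all protein-coding genes, and 47 had none in any list. By list, 16 genes held a peak of 82-kDa ChAT after vehicle (10.5% of all protein-coding genes did), 18 after Aβ (11.1% of all), 6 a peak of SATB1 after vehicle (4.83% of all) and 12 after Aβ (12.0% of all). These shares of all genes are not matched for length, and from the length of each guidance gene 19.1, 18.9, 9.57 and 19.2 genes with a peak were expected in the same order. Length orders the genes: 16 of the 22 guidance genes of 200 kb or more held a peak, against 83.4% of all protein-coding genes of that length, while 12 of the 53 shorter ones did. Of these 22 long genes, 11 held a peak of 82-kDa ChAT after vehicle (46.3% of all long genes did), 12 after Aβ (50.3%), 6 a peak of SATB1 after vehicle (26.6%) and 9 after Aβ (43.2%). In the shortest class, under 50 kb, 6 of 34 guidance genes held a peak (17.6%, and 12.4% of other genes). In the class from 50 to 200 kb it was 6 of 19 (31.6% and 47.4%), from 200 to 500 kb 7 of 12 (58.3% and 79.9%), and at 500 kb or more 9 of 10 (90.0% and 97.1%). Guidance genes thus had the smaller share in each class above 50 kb, which was not tested.

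**Figure D2:**
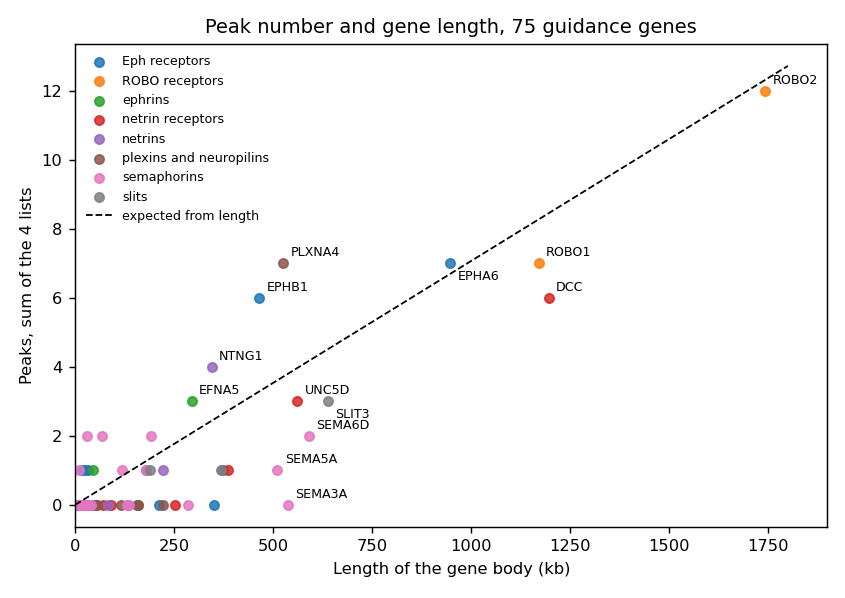
Number of peaks summed over the 4 lists (vertical axis) against the length of the gene body in kb (horizontal axis) for the 75 guidance genes, coloured by family. The dashed line is the number expected from length. ROBO2 lies at 12 peaks close to the line, PLXNA4 and EPHB1 lie above it at 7 and 6, and SEMA3A lies on the axis at 0.

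The 4 genes with a peak in every list were EPHA6, EPHB1, PLXNA4 and ROBO2. For PLXNA4 this rests on a single SATB1 peak after Aβ that matched the Alu repeat. Of its 51 nt stretches, 75.4% occurred more than once in the genome. Peaks of 82-kDa ChAT lay in 25 guidance genes, 9 of them in both treatments (DCC, EPHA6, EPHB1, NTNG1, PLXNA4, ROBO1, ROBO2, SEMA3D and UNC5D), 7 after vehicle alone and 9 after Aβ alone. Peaks of SATB1 lay in 13, of which 5 had one in both treatments (EFNA5, EPHA6, EPHB1, PLXNA4 and ROBO2), NTNG1 after vehicle alone, and 7 after Aβ alone (DCC, ROBO1, SEMA3C, SEMA4B, SEMA6D, SLIT1 and UNC5C). In 6 of these 7, all but SLIT1, the SATB1 peak matched the Alu repeat. SEMA3C, SLIT1 and UNC5C held a SATB1 peak and no peak of 82-kDa ChAT. Both proteins had a peak in 5 genes after vehicle and in 8 after Aβ, but these were peaks in the same gene and not at the same place. For these counts of genes by list, treatment and protein, no expected number and no share over all protein-coding genes was computed. They depend on list size: the SATB1 lists held 1039 and 2770 peaks in protein-coding genes after vehicle and Aβ, those of 82-kDa ChAT 2729 and 2693.

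**Figure D3:**
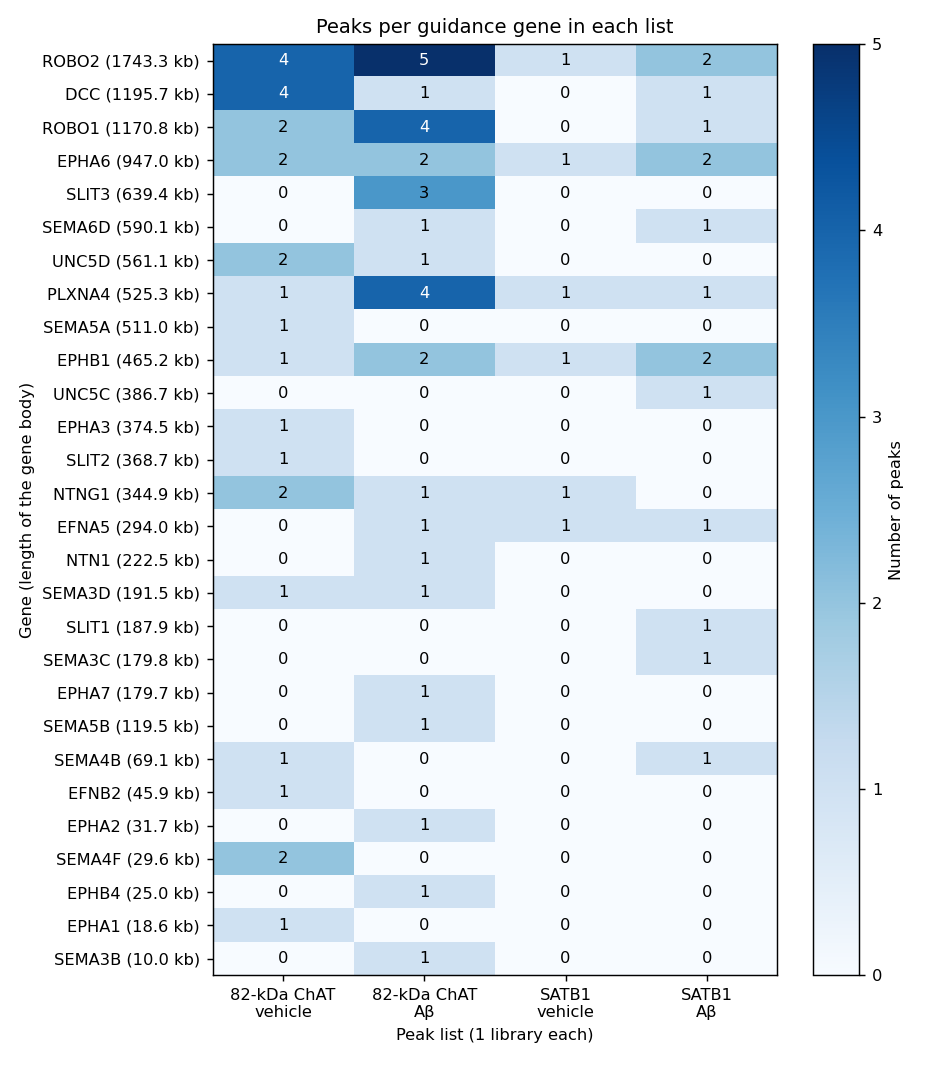
Number of peaks in each of the 28 guidance genes with a peak (rows, ordered by the length of the gene body in kb) in the 4 peak lists (columns, 1 library each), with the number printed in each cell and darker blue for more. The highest cell is ROBO2 with 5 peaks of 82-kDa ChAT after Aβ.

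None of the 80 peaks shared a base with a peak of another list, which allows a share of up to 3.75% (3 counts of 80). Over all protein-coding genes 873 of 9231 peaks did (9.46%). Within 1000 nt the number in guidance genes was still 0, against 11.6% of all gene peaks. Among peaks that reached the median score of their list it was 0 of 36, which allows up to 8.33%, above the 6.97% of all such gene peaks. The sets also differ in multi-copy peaks, in which most 51 nt stretches occur more than once in the genome. These made up 3.7, 0, 0 and 46.7% of guidance gene peaks in the order of the lists. Of all gene peaks they made up 15.3, 8.9, 16.3 and 58.6%. Shared peaks were not counted without multi-copy peaks. The nearest pair from different lists lay 7458 nt apart, and the median distance from a peak to the nearest peak of another list was 54.0 kb. A gene such as ROBO2 or EPHA6 was therefore touched by both proteins and in both treatments at separate positions.

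ROBO1 and ROBO2, which make slit-responsive axons turn away, held 19 of the 80 peaks, and the 4 ROBO genes together were expected to hold 20.8. ROBO2 (ENSG00000185008.19, chr3:75906695-77649964, plus strand), the longest of the guidance genes, had 4 and 5 peaks of 82-kDa ChAT after vehicle and Aβ and 1 and 2 of SATB1, 12 in all against 12.33 expected. All 9 of its 82-kDa ChAT peaks lay more than 988 kb from the start of the gene, in the part that the reference transcript mostly covers, with 5 of them in intron 2. The SATB1 vehicle peak lay 286.5 kb and 1 SATB1 Aβ peak 475.8 kb from the start, both before the reference transcript begins, and the second SATB1 Aβ peak lay in intron 4 of 27, at 1579.6 kb. The SATB1 Aβ peak at 475.8 kb matched the Alu repeat and was multi-copy. ROBO1 (ENSG00000169855.21, chr3:78597239-79767998, minus strand) had 2 peaks of 82-kDa ChAT after vehicle and 4 after Aβ, no SATB1 peak after vehicle and 1 after Aβ, 7 against 8.28 expected. Its peaks fell in introns 2 and 3 of 30, and 1 of them, after Aβ, had the highest score of all 80 (137.12). The SATB1 peak of ROBO1 matched the Alu repeat and was multi-copy. The short ROBO3, which tempers slit repulsion before axons cross the midline, and ROBO4, found in blood vessels, had no peak at 16.0 and 14.8 kb.

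The closest peaks of different lists lay in intron 1 of ROBO2, 7458 nt apart, both of 82-kDa ChAT. The peak found after Aβ is shown because it is the nearest that the guidance genes came to a shared place, and was picked out after its values had been seen.
ROBO2, 82-kDa ChAT Aβ, chr3:77095324-77095387, score 55.89: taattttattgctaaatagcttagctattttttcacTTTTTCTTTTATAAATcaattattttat
It is rich in A and T, with a GC content of 15.6%, and holds 1 match of the A/T-rich pattern in 16 capital letters, counted without overlap. The stretch from the last capitals to the end of the sequence also fits the pattern. It overlaps the marked match and so was neither counted nor put in capitals.

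Receptors for netrins held 10 peaks, and 6 of them lay in 1 gene. DCC, the receptor that draws axons towards netrin (ENSG00000187323.13, chr18:52340197-53535899, plus strand), had 4 peaks of 82-kDa ChAT after vehicle, 1 after Aβ, and none and 1 of SATB1, 6 in all against 8.46 expected. The SATB1 peak of DCC matched the Alu repeat and was multi-copy. Its 82-kDa ChAT vehicle peaks lay in introns 1, 2, 7 and 21 of 28 and scored 53.93 to 85.42. The peak in intron 21 (score 78.83, 100 nt) had a GC content of 0.0%, so it held only A and T. UNC5D, a receptor for repulsion, had 2 and 1 peaks of 82-kDa ChAT and none of SATB1, and UNC5C had only 1 Alu-matching peak of SATB1 after Aβ, in intron 1. Together the netrin receptors held 6, 2, 0 and 2 peaks in the order 82-kDa ChAT vehicle and Aβ and SATB1 vehicle and Aβ, against 5.39, 5.32, 2.05 and 5.47 expected. The ratio for 82-kDa ChAT was 1.11 (interval 0.408 to 2.42) after vehicle and 0.376 (interval 0.0455 to 1.36) after Aβ, and these intervals overlap. NEO1, the relative of DCC that also binds repulsive guidance molecules, had no peak in 253.5 kb, where 1.79 were expected, and UNC5A and UNC5B had none.

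Among the 14 Eph receptors, kinases that bind ephrins on neighbouring cells, 7 held a peak, and the family had 5, 7, 2 and 4 peaks in the order of the lists against 6.04, 5.96, 2.30 and 6.13 expected. EPHA6 (ENSG00000080224.18, chr3:96814581-97761532, plus strand) held 2 peaks in each list but SATB1 vehicle, where it held 1, 7 in all against 6.70 expected. Along the gene the 7 peaks lay as follows, and whether this arrangement means anything was not tested. The 2 SATB1 Aβ peaks and the SATB1 vehicle peak, all in intron 3 of 17, lay 347.5 to 403.6 kb from the start, the 82-kDa ChAT Aβ peaks at 416.5 and 470.0 kb and the 82-kDa ChAT vehicle peaks at 592.9 and 802.8 kb. EPHB1 (ENSG00000154928.19, chr3:134795260-135260467, plus strand) held 1, 2, 1 and 2 peaks, 6 against 3.29 expected. Of these, 4 lay in its intron 1, and 1 of them, of 82-kDa ChAT after Aβ, only 4.3 kb from the start of the gene. In EPHB1 the proteins were mixed, with a SATB1 peak at 83.8 kb between 82-kDa ChAT peaks at 36.1 and 118.5 kb.

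Each of the other Eph receptors with a peak had a single one in its gene body, of 82-kDa ChAT. EPHA1 and EPHA3 had theirs after vehicle, and EPHA2, EPHA7 and EPHB4 after Aβ. The EPHA7 peak in intron 5 scored 89.45. The EPHB4 peak (chr7:100807249-100807383, score 73.21) covered coding sequence of exon 13. EPHA2, a receptor best known from epithelial cells and tumours, had its peak in intron 3 (score 73.82) and, outside the gene body and so outside the counts, the only peak in the 2000 nt upstream of any guidance gene, 876 nt before the gene start at chr1:16156945-16157078 (82-kDa ChAT after Aβ, score 59.64). EPHA5 and EPHB2 had no peak in 350.9 and 210.7 kb, where 2.48 and 1.49 were expected, and EPHA4, EPHA8, EPHA10, EPHB3 and EPHB6 had none either.

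The strongest SATB1 peak after Aβ in a guidance gene that did not match the Alu repeat lay in intron 3 of EPHA6, and is shown as an example outside the repeat. It was chosen after its values had been seen.
EPHA6, SATB1 Aβ, chr3:97162051-97162178, score 76.96: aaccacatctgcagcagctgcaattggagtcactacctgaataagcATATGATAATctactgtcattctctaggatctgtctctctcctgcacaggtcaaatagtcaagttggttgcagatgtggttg
Its GC content was 43.8% and it holds 1 match of the A/T-rich pattern. The 4 SATB1 Aβ peaks without an Alu match, in EPHA6, EPHB1, ROBO2 and SLIT1, had a GC content of 37.9 to 51.7%, and the 11 Alu-matching ones 48.1 to 65.0%.

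The peaks of the plexin and neuropilin receptors all lay in 1 gene of 11. PLXNA4 (ENSG00000221866.10, chr7:132123340-132648688, minus strand), which works with neuropilins as a receptor for secreted semaphorins, held 1 peak of 82-kDa ChAT after vehicle and 4 after Aβ, and 1 of SATB1 in each treatment. Its 7 peaks compared with 3.72 expected. After Aβ, 1 peak of 82-kDa ChAT (chr7:132182126-132182240, score 62.87) covered coding sequence of exon 17, and the others lay in introns 4 and 25 of 31 and before the reference transcript, 14.3 kb from the start of the gene. The vehicle peak lay in intron 2 and the SATB1 peaks in intron 1. The SATB1 peak after Aβ matched the Alu repeat and was multi-copy. PLXNA2 had no peak in 222.1 kb, where 1.57 were expected, and PLXNA1, PLXNA3, PLXNB1, PLXNB2, PLXNB3, PLXNC1, PLXND1, NRP1 and NRP2 had none. For the family as a whole, 7 peaks stood against 9.77 expected (ratio 0.717, interval 0.288 to 1.48).

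**Figure D4:**
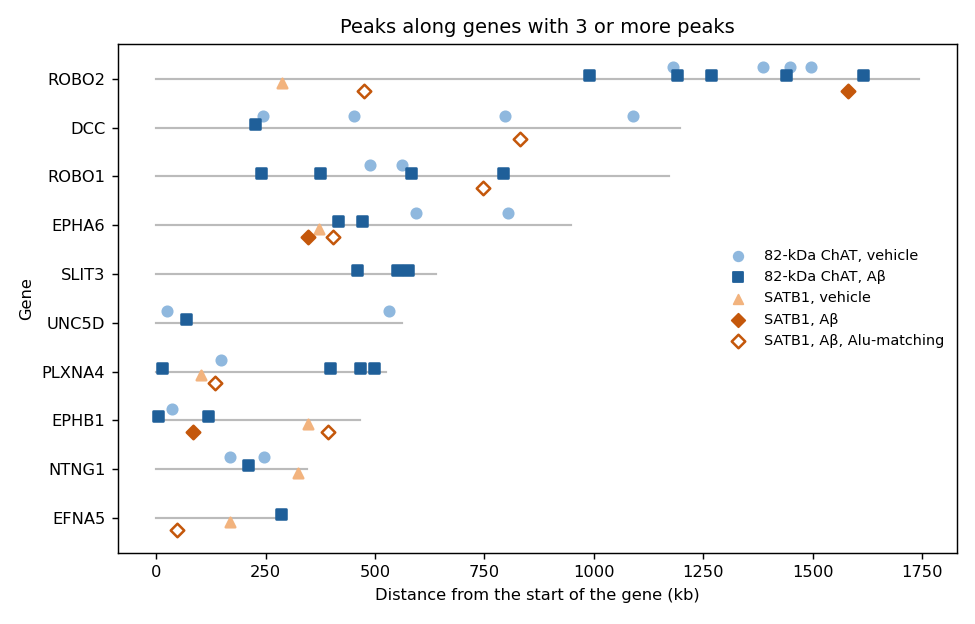
Position of each peak in kb from the start of the gene (horizontal axis) for the 10 guidance genes with 3 or more peaks (vertical axis, grey lines drawn to the length of the gene). Blue circles and squares are 82-kDa ChAT after vehicle and Aβ, orange triangles and diamonds SATB1 after vehicle and Aβ, and open diamonds match the Alu repeat. Symbols of different lists are offset vertically. No 2 peaks of different lists coincide, and all 82-kDa ChAT peaks of ROBO2 lie beyond 988 kb.

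Among the ligands, the 3 slits held 5 peaks against 8.46 expected. SLIT3 had 3 peaks of 82-kDa ChAT after Aβ, in introns 6, 18 and 20 of 35 with scores of 59.32 to 64.20, and none in the other lists. SLIT2 had 1 peak of 82-kDa ChAT after vehicle, in intron 30, and SLIT1 had 1 SATB1 peak after Aβ, in intron 4. No slit held a peak in more than 1 list, while both of the long ROBO receptors were touched in at least 3. From length, 1.33, 2.61 and 4.52 peaks were expected in SLIT1, SLIT2 and SLIT3, and 8.28 and 12.33 in ROBO1 and ROBO2.

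The netrins held 5 peaks against 5.64 expected, and 4 of them lay in NTNG1, which codes for netrin-G1, a membrane-anchored netrin that does not bind DCC. NTNG1 had 2 and 1 peaks of 82-kDa ChAT and 1 of SATB1 after vehicle, 4 against 2.44 expected, in introns 2, 3 and 7 of 7. NTN1, the classical secreted netrin that DCC reads, had 1 peak of 82-kDa ChAT after Aβ, in intron 2 (score 79.20). NTN3, NTN4, NTN5 and NTNG2 had none.

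The 9 ephrin genes, short apart from EFNA5 at 294.0 kb, together held 4 peaks against 2.87 expected, a ratio of 1.39 (interval 0.380 to 3.57). The ligand of EphA receptors EFNA5, a repellent in the mapping of visual axons, held 3 of the 4, 1 each in 82-kDa ChAT after Aβ and in SATB1 after vehicle and after Aβ. Its 2 SATB1 peaks lay in intron 1, and the peak after Aβ (score 69.69) matched the Alu repeat. EFNB2, the ligand of EPHB4 in blood vessels, had 1 peak of 82-kDa ChAT after vehicle, in intron 1 (score 78.83). EFNA1, EFNA2, EFNA3, EFNA4, EFNB1 and EFNB3 had none.

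The 20 semaphorins held 12 peaks against 21.0 expected over the 4 lists (ratio 0.570, interval 0.295 to 0.996), and no other of the 8 families had an interval wholly below 1. The netrin receptors had a lower ratio, 0.548, with an interval of 0.263 to 1.01. The semaphorin interval included 1 among peaks that reached the median score (0.210 to 1.24), without Alu-matching peaks (0.281 to 1.17) and without multi-copy peaks (0.355 to 1.27). By list the semaphorins held 5, 4, 0 and 3 peaks against 6.22, 6.14, 2.37 and 6.31. Among the secreted class-3 members, SEMA3D had 1 peak of 82-kDa ChAT after each treatment, with a score of 91.74 after vehicle, and SEMA3C 1 Alu-matching SATB1 peak after Aβ. SEMA3B, at 10.0 kb the shortest gene with a peak, had 1 peak of 82-kDa ChAT after Aβ over coding sequence of exon 8 (chr3:50273617-50273712, score 52.89). SEMA3A, a secreted repellent of many axons that reaches PLXNA4 through neuropilin, had none in 536.9 kb, where 3.8 were expected, and was the only guidance gene of 500 kb or more without one. SEMA3E had none in 285.9 kb (2.02 expected).

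Of the membrane-bound semaphorins, SEMA4F had 2 peaks of 82-kDa ChAT after vehicle in 29.6 kb, only 2.9 and 3.4 kb from the gene start, the first in intron 2 and the second (chr2:74657555-74657703, score 56.65) reaching coding sequence of exon 3. SEMA4B had 1 peak of 82-kDa ChAT after vehicle and 1 Alu-matching SATB1 peak after Aβ. This gene was itself dense in Alu copies, with 108.58 for every 100 kb. SEMA6D had 1 peak of 82-kDa ChAT and 1 Alu-matching peak of SATB1, both after Aβ, in 590.1 kb where 4.17 peaks were expected. SEMA5A had 1 peak after vehicle and SEMA5B 1 after Aβ, both of 82-kDa ChAT, in introns 5 and 1. With SEMA3A and SEMA3E, SEMA3F, SEMA3G, SEMA4A, SEMA4C, SEMA4D, SEMA4G, SEMA6A, SEMA6B, SEMA6C and SEMA7A made up the 12 semaphorins without a peak.

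**Figure D5:**
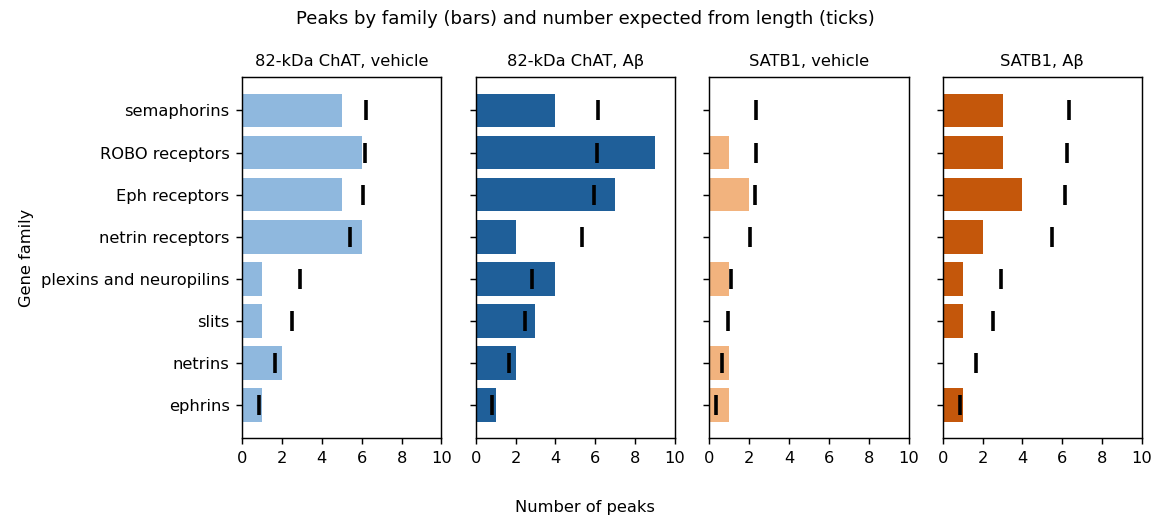
Number of peaks (horizontal axis, bars) in each of the 8 guidance gene families (vertical axis) in each of the 4 lists, with the number expected from length as a black tick. After Aβ the ROBO receptors reach 9 peaks of 82-kDa ChAT against 6.08, and in the SATB1 Aβ panel every bar except that of the ephrins ends before its tick.

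By role, ligands held 26 peaks against 38.0 expected (ratio 0.684, interval 0.447 to 1.0) and receptors 54 against 69.3 (ratio 0.780, interval 0.586 to 1.02), and the intervals overlap widely. In each list the receptor and ligand ratios lay close together, at 0.879 and 0.801 for 82-kDa ChAT after vehicle, 1.09 and 0.902 after Aβ, 0.513 and 0.468 for SATB1 after vehicle, and 0.481 and 0.438 after Aβ. After Aβ, the 82-kDa ChAT peaks in the ROBO genes numbered 9 against 6.08 (ratio 1.48, interval 0.677 to 2.81) and those in the Eph receptors 7 against 5.96 (ratio 1.18, interval 0.472 to 2.42). Taking each list singly, the interval of every family included 1. By role, the receptor interval for SATB1 after Aβ was 0.231 to 0.885, wholly below 1, and the other intervals of single lists included 1.

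The median distance of the peaks from the gene start was 305.6 kb. Within 10 kb of the start lay 4 of 80, and 3.85 were expected from the length of these stretches. In the reference transcripts, 18 lay in intron 1 and 17 in intron 2. With each gene cut into 3 equal parts, 25 peaks lay in the first, 22 in the middle and 33 in the last. Chromosome 3, which carries ROBO1, ROBO2, EPHA6 and EPHB1 among 13 guidance genes, held 35 of the 80 peaks (43.8%) and 33.2% of the length of the guidance genes. The 6 genes with the most peaks held 45.

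The peaks of 82-kDa ChAT in guidance genes after vehicle had a lower median score than its peaks in genes at large, 59.59 against 65.08, and 7 of 27 reached the median of the whole list (66.57). After Aβ the medians were 62.14 and 63.62, and 15 of 32 reached the list median of 63.57. For SATB1 the medians were 65.0 and 66.7 after vehicle, with 3 of 6 at or above 65.85, and 70.38 and 66.61 after Aβ, with 11 of 15 at or above 66.43. Peaks were 54 to 215 nt long. After vehicle the median length of the 82-kDa ChAT peaks was 100 nt, against 135 nt over all genes.

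The median GC content of the guidance gene peaks of 82-kDa ChAT was 36.0% after vehicle, against 43.8% for all its gene peaks, and 43.4% after Aβ, against 42.3%. For SATB1 it was 40.4% after vehicle and 51.7% after Aβ, against 42.5 and 52.4%. The guidance gene bodies had a GC content of 40%, and all protein-coding gene bodies 41.8%. The A/T-rich pattern was found in 20 of 27 and 23 of 32 peaks of 82-kDa ChAT (74.1 and 71.9%, and 59.2 and 62.4% of all gene peaks) and in 6 of 6 and 9 of 15 of SATB1 (100 and 60.0%, and 64.1 and 69.0%). The letters TCCAT or TCCCAT on either strand, the other motif that the study drew from its lists, occurred in 6, 6, 4 and 3 peaks, and in 31.3, 28.1, 34.6 and 16.6% of all gene peaks, which makes 22.2, 18.8, 66.7 and 20% of those in guidance genes. These motifs share at most flanking A and T letters. Peaks differ in length between the sets, and a match is a description of the letters only.

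A list of 61 other genes of the pathway, made up of co-receptors, further cues and signalling proteins inside the cell, covered 10.05 Mb and held 38.4 Alu copies for every 100 kb. Its peaks numbered 24, 23, 7 and 18 in the order of the lists, against 21.0, 20.7, 8.00 and 21.3 expected from length, with ratios of 1.14, 1.11, 0.875 and 0.844 whose intervals all include 1. A peak was found in 14, 16, 5 and 15 of the 61 genes, and in 10.5, 11.1, 4.83 and 12.0% of all protein-coding genes. The shares of all genes are not matched for length, and longer genes hold a peak more often. How many of the 61 genes would hold a peak from their length alone was not computed. DOCK1, which activates the small GTPase Rac below DCC, had the most, 7 peaks of 82-kDa ChAT after vehicle and 1 after Aβ, and 1 and 2 of SATB1 in 547.1 kb. SRGAP2, a partner of ROBO receptors, had 1 and 4 of 82-kDa ChAT and 0 and 2 of SATB1, and TRIO, which also acts on Rac, had 3 and 1 of 82-kDa ChAT and 3 and 0 of SATB1.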

How the data were processed

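Peaks were taken from 4 deposited lists, 1 for each protein and treatment, giving a position and a score for every peak. To make the score, the authors mapped reads with BWA to hg38, ran MACS with a p-value limit of 1e-05 and dropped any peak that the input also showed. The deposited score is 10 times −log10 of that p-value (the MACS version is not given in the sources used here). The lists hold no read counts, so the depth of each library was not computed here, and their number of peaks limits the precision. No peak lay past the end of an hg38 sequence.

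Gene bodies came from GENCODE 44, on chromosomes 1 to 22, X and Y. A peak belonged to a gene when at least 1 nt lay within it, and a peak in overlapping genes counted once. Expected numbers were peaks per nt of the union of protein-coding gene bodies times the length of the guidance genes. Intervals were exact Poisson for counts and ratios, Clopper-Pearson for shares above 0 and Newcombe for differences of shares, at 95%, and cover counting error only. For a count of 0, the limit is 3 counts of the total. No test was run between libraries, since each group had 1. Alu copies were found with blastn 2.17.0 (e-value 1e-05) using a 287 nt Alu copy around a SATB1 peak, and a peak was called multi-copy when more than 50% of its 51-mers occurred more than once in the genome. Python 3.11.15, pandas 2.3.3, scipy 1.17.1 and pysam 0.24.0 were used. The counting was checked on simulated lists over 20033 genes and against direct counts on the SATB1 vehicle list. The 51-mer step was checked separately, and in all 6 of 6 checks passed.

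The genes, the list of partner genes and the settings were chosen with earlier results of these data known. Named genes were the 25 with the most peaks (ties in alphabetical order), those with a peak touching an exon or the 2000 nt upstream, those where peaks of different lists overlap, and those of at least 200 kb with no peak. SLIT1, SLIT2, UNC5C and the shorter genes without a peak fall outside this rule and are named to account for every gene. The Alu-copy expectation, the set without UNC50, UNC5CL and EFNA4-EFNA3 and the comparison of the proteins without Alu-matching peaks were chosen after the data had been seen. Some peak sequences are not reported here.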

Additional observations from a re-analysis of the deposited data

Results flagged for a closer look

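The share of gene peaks that fell in guidance genes moved in opposite directions for the 2 proteins. Aβ minus vehicle, it was 0.199 percentage points for 82-kDa ChAT (95% interval −0.365 to 0.773) and −0.036 for SATB1 (95% interval −0.745 to 0.433). With 1 library in each group the difference between the proteins was not tested, and both intervals include 0. The SATB1 value was above 0 at the higher score and without Alu-matching or multi-copy peaks.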

How the results depend on the processing

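Over the planned and added settings, 107 values for the lists stayed within 1.5 times the reported count or within its interval, and 11 did not. Counts of named genes moved by more in 15 genes at the median score (ROBO2 12 to 4, NTNG1 4 to 0, SLIT3 3 to 1), in 3 without Alu-matching peaks, and in 1 each without multi-copy peaks and with the upstream 2000 nt. The median score setting drops every peak below the list median by construction, so lower counts under it are not in themselves a sign of instability. Ratios under this setting take their expected number from the same kept peaks. With only the peaks that reached the median score of each list, peaks in guidance genes numbered 7 for 82-kDa ChAT after vehicle, 15 after Aβ and 3 for SATB1 after vehicle. Genes with a peak then numbered 5 for 82-kDa ChAT after vehicle and 3 for SATB1 after vehicle, and the observed to expected ratio of 82-kDa ChAT after vehicle was 0.480 (interval 0.193 to 0.988). Without Alu-matching peaks SATB1 after Aβ had 4 peaks in 4 genes, and without multi-copy peaks 8 peaks in 6 genes, since these settings remove peaks by construction. With Alu copies setting the expectation for Alu-matching peaks, a setting added after the data had been seen, its ratio was 0.786 (interval 0.440 to 1.30). The interval for SATB1 after Aβ also included 1 at the higher score (0.328 to 1.18), without Alu-matching peaks (0.178 to 1.67) and without multi-copy peaks (0.259 to 1.18). These settings left 11, 4 and 8 peaks. In the other settings it lay wholly below 1. It was 0.313 to 0.922 when expected from genes of at least 100 kb and 0.28 to 0.825 from the same chromosome. Expected from the whole genome it was 0.278 to 0.818, and without ROBO2 0.243 to 0.78. Expected from the whole genome instead of genes, the ratio for SATB1 after vehicle was 0.403 (interval 0.148 to 0.877), wholly below 1. The difference in share for SATB1, Aβ minus vehicle, was above 0 at the higher score (0.217), without Alu-matching peaks (0.139) and without multi-copy peaks (0.00843), and all its intervals include 0. No paired analysis was possible because each group had 1 library. Precision is limited by 6 to 32 peaks in guidance genes for each list, and the inputs and reads were not analysed here.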
